A study of Homo sapiens with 4 samples.

Results

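Integrins and laminins form the link between a cell and its basement membrane, and the transcripts of 37 of their chains were followed here among 29655 gene names counted in UMSCC74B cells. The members were taken by gene name from a fixed list, 26 integrin chains (18 alpha and 8 beta) and 11 laminin chains, and all 37 were found in the tables, each as a single entry. UMSCC74B is an established line derived from a head and neck squamous cell carcinoma. RNA-seq of total RNA was compared between 2 libraries from cells given control shRNA, labelled WT, and 2 libraries from cells given PRMT5 shRNA, labelled PRMT5 KD (the KD-labelled libraries), all collected after 72 h. All 4 come from the same line, and nothing in the labels says that replicates were separate cultures, so the tests measure the spread between these libraries, which may be technical.

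An integrin is a dimer of an alpha and a beta chain that spans the plasma membrane. The alpha chain largely sets which ligand is bound, and the beta chain couples to talin, kindlin and actin, or, in ITGB4, to plectin and keratin filaments in hemidesmosomes. A laminin is a cross-shaped trimer of an alpha, a beta and a gamma chain, and its alpha chain carries the globular domain that integrins recognise. In stratified epithelium the basal cells are known to anchor through the dimer of ITGA6 with ITGB4 and through ITGA3 with ITGB1 to a laminin built on LAMA3 and LAMB3.

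Between 52185289 and 65964558 estimated counts per library fell on named genes, and ribosomal RNA took 15.2% and 14.2% of them in control against 26.2% and 18% in the KD-labelled libraries. The PRMT5 transcript itself was higher in the libraries labelled PRMT5 KD, with 94.2 and 84.2 CPM (counts relative to the TMM-adjusted library size) in control and 132 and 149 CPM in the KD-labelled libraries (log2 fold change 0.66, standard error 0.12, FDR = 0.00548 from edgeR, and 0.0667 without control replicate 2). Directions are therefore given by label throughout. The labels state that PRMT5 protein was also assessed by immunoblot, and the paper reports that an immunoblot bore out the silencing by PRMT5 shRNA. That protein measure was not analysed here. Markers of squamous epithelium were nearly absent. KRT5 had 0 counts in 3 libraries and 4 in the other, KRT14 had at most 22 and CDH1 at most 9, and TP63 was the only 1 of 8 markers that passed the filter on low values. The summed level of the 8 markers ran from 6.87 to 7.49 CPM in control and from 4.56 to 7.92 CPM in the KD-labelled libraries. Within that sum TP63, which passed through control alone, went from 5.50 and 6.59 CPM to 1.74 and 3.01 CPM. At low counts, KRT14 rose from 0 in both control libraries to 11 and 22 in the KD-labelled libraries. KRT17 rose from 5 and 6 counts to 53 and 71, and SFN from 3 and 5 to 28 and 86. KRT5, KRT6A, CDH1 and EPCAM overlapped between the groups. Of 7 fibroblast markers 6 passed, with summed levels of 632 and 732 CPM in control and 87.7 and 97.3 CPM in the KD-labelled libraries. Leukocyte markers PTPRC, CD3E and MS4A1 had at most 5 counts in any library, while CD68 and CD14 passed the filter. CD14 was lower in the KD-labelled libraries, with 34.6 and 39.9 CPM in control against 1.07 and 1.86 CPM (log2 fold change -4.67, FDR = 0.000243), and CD68 was higher (0.63, FDR = 0.00837, and 0.0732 without control replicate 1). The 5 endothelial markers, of which PECAM1 passed, summed to 13.15 and 16.9 CPM in control and 5.04 and 4.76 CPM in the KD-labelled libraries. These markers were mixed in direction. PECAM1 went from 7.40 and 9.77 CPM to 0.294 and 0.146 CPM, and VWF from 2.57 and 4.09 CPM to 0.714 and 0.313 CPM. TIE1 went up, from 2.22 and 2.14 CPM to 2.94 and 3.62 CPM. KDR overlapped between the groups, and CDH5 had at most 8 counts.

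Most of the integrin and laminin chains that could be tested were lower in the KD-labelled libraries. Of the 37 chains, 26 passed the filter (0.5 RPKM or more in each library of at least 1 group, RPKM being CPM divided by the kilobases of exon) and 20 were called, meaning an FDR below 0.05 and a change of 0.5 or more in log2 either way. For the filter alone, RPKM was taken on totals of protein-coding counts without the TMM adjustment. Among the 20, 18 were lower and 2 were higher. Over all 11905 genes tested, 45.5% were called, 24.3% lower and 21.2% higher, against 76.9% of the chains called and 69.2% lower. The 26 chains had a median log2 fold change of -1.51, and all genes tested one of -0.0075. In 25 of the 26 chains the libraries of the groups did not overlap, which was also the case for 80.5% of all genes. A chain that is low in both groups could not enter the filter, so these counts describe only the 26 chains with enough reads. ITGA10, ITGA11, ITGB4, LAMA2 and ITGAE entered through the control libraries alone, where they are high, so a lower level was built into their selection. Of the 21 chains that passed in both groups, 14 were called lower, 2 higher and 5 were not called. In bulk RNA, fewer cells that carry a transcript and less of it per cell cannot be told apart. The summed fibroblast markers were lower in the same libraries as the chains, as was CD14, and their part in the result was not tested.

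**Figure D1:**
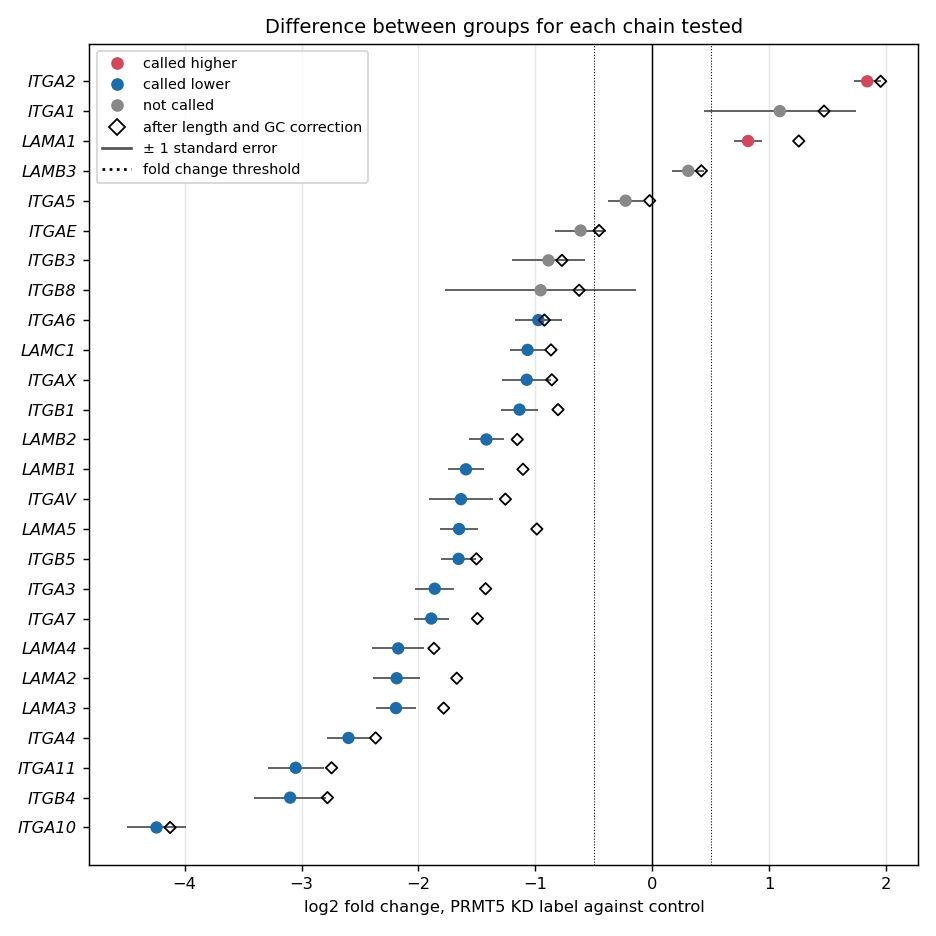
Log2 fold change of the 26 chains tested, libraries labelled PRMT5 KD against control, with 2 libraries per group. Filled points are the fitted values coloured by call, bars are ± 1 standard error, and dotted lines mark the fold change threshold of 0.5. Open diamonds are the values corrected for exon length and for the GC content of the longest annotated transcript. ITGA2 stands highest at 1.84 and ITGA10, which passed the filter through control alone, lowest at -4.24, and the diamonds lie to the right of the filled points.

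The laminin-binding alpha chains, ITGA3, ITGA6 and ITGA7, were all called lower. ITGA3, which lies on chromosome 17 of GRCh38 from 50055968 to 50090481, had 207 and 255 RPKM in control and 62.3 and 65.0 RPKM in the KD-labelled libraries. The control libraries were both over 3 times as high as either PRMT5 KD library, or -1.86 in log2 fold change (standard error 0.17, FDR = 0.000499). ITGA7, the main laminin receptor chain of muscle, had 7.60 and 9.22 RPKM in control and 2.11 and 2.43 RPKM in the KD-labelled libraries, or -1.89 in log2 fold change (standard error 0.15, FDR = 0.000366). ITGA6 had 8.96 and 8.59 RPKM in control and 3.55 and 5.38 RPKM in the KD-labelled libraries. Its groups were separate, but the PRMT5 KD libraries differed between themselves by more than the control libraries did. Its log2 fold change was -0.97 (standard error 0.20, FDR = 0.00932), and the call was lost without control replicate 1 (FDR = 0.0613) or without control replicate 2 (FDR = 0.0602).

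Their beta partners fell as well. ITGB1, the partner of most alpha chains, lies on chromosome 10 from 32887273 to 33005792. It had 138 and 159 RPKM in control and 70.6 and 64.6 RPKM in the KD-labelled libraries, or -1.14 in log2 fold change (standard error 0.16, FDR = 0.00172). ITGB4, the hemidesmosome chain, was close to the filter in control, with 0.706 and 0.969 RPKM. It fell to 0.112 and 0.0835 RPKM, from 189 and 328 counts to 36 and 27 (log2 fold change -3.10, standard error 0.31, FDR = 0.000631). ITGB4 was the scarcest of the beta chains tested in every library.

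**Figure D2:**
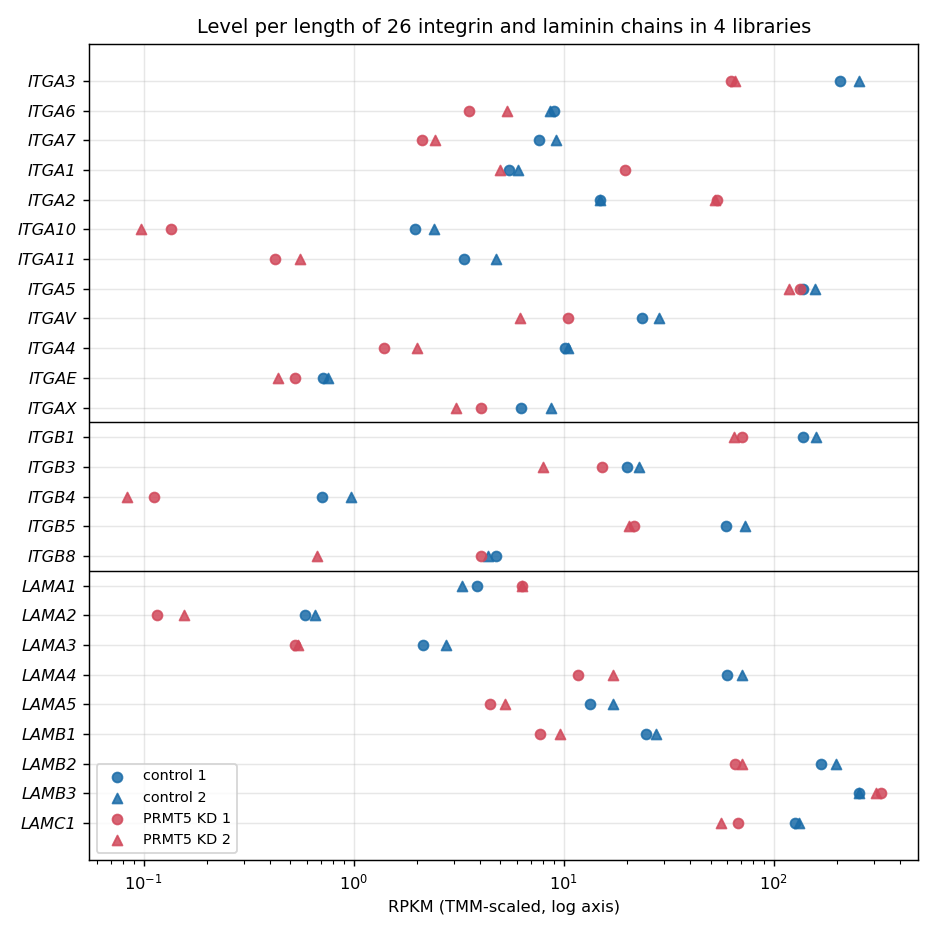
RPKM of the 26 chains tested in each of the 4 libraries, on a log axis, in blocks of integrin alpha, integrin beta and laminin chains. Blue marks are control and red marks PRMT5 KD, circles are replicate 1 and triangles replicate 2. ITGA3, ITGA5, ITGB1, LAMB2, LAMB3 and LAMC1 are the chains above 100 RPKM in both control libraries, and ITGA1 and ITGB8 show the widest gaps between PRMT5 KD replicates.

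Of 11 laminin chains 9 passed the filter, 7 were called lower, LAMA1 was called higher and LAMB3 was not called. LAMA4, an alpha chain typical of vessels and mesenchyme, was the most abundant laminin alpha chain. It had 59.6 and 70.8 RPKM in control and 11.7 and 17.2 RPKM in the KD-labelled libraries (log2 fold change -2.17, standard error 0.22, FDR = 0.000749). LAMA5, the alpha chain of most adult basement membranes, had 13.4 and 17.1 RPKM against 4.44 and 5.27 RPKM (log2 fold change -1.65, FDR = 0.000622). The groups were clearly separate for both chains. LAMA3, the alpha chain of the epithelial laminin, had 2.13 and 2.75 RPKM in control and 0.527 and 0.541 RPKM in the KD-labelled libraries (log2 fold change -2.19, standard error 0.17, FDR = 0.000354). LAMA2, the alpha chain of muscle laminin, had 0.584 and 0.658 RPKM against 0.116 and 0.157 RPKM (log2 fold change -2.19, FDR = 0.000522). LAMA1, the alpha chain of early embryonic basement membranes, on chromosome 18 from 6941742 to 7117797, went the other way. It rose from 3.88 and 3.28 RPKM to 6.32 and 6.31 RPKM (log2 fold change 0.82, standard error 0.12, FDR = 0.00238).

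The beta and gamma chains did not move alike. LAMB2 had 168 and 197 RPKM in control and 65.3 and 70.9 RPKM in the KD-labelled libraries (log2 fold change -1.42, FDR = 0.000799). LAMB1 had 24.6 and 27.5 RPKM against 7.69 and 9.57 RPKM (log2 fold change -1.59, FDR = 0.000604). LAMC1, the common gamma chain, had 127 and 132 RPKM against 67.7 and 55.9 RPKM (log2 fold change -1.07, FDR = 0.00206). LAMB3, the beta chain that pairs with LAMA3, had 254 and 255 RPKM in control and 323 and 308 RPKM in the KD-labelled libraries. Both PRMT5 KD libraries lay above both control libraries, yet the log2 fold change of 0.31 (standard error 0.14, FDR = 0.0994) did not pass. LAMB3 lies on chromosome 1 from 209614870 to 209652425 and was the most abundant laminin chain per exon length in every library. LAMB4 and LAMC3 did not pass the filter, with at most 23 and 11 counts.

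Chains that share a dimer or trimer were then set side by side within each library, as were laminin receptor chains with laminin alpha chains. There the scaling between libraries drops out. Of 20 pairs fixed for this, 19 had both chains tested, and in 15 of these the ratios of the groups did not overlap. The 15 include every pair of a receptor chain with a laminin chain. Among single genes the groups did not overlap in 80.5% of all tested, so this count does not set the pairs apart. The share for other pairs of genes was not computed. The pairs share chains, and no test was made. The largest shift was between ITGA2 and ITGB1. ITGA2 stood at 0.108 and 0.0937 of ITGB1 in control and at 0.764 and 0.813 of it in the KD-labelled libraries, on RPKM. LAMA3 and LAMB3, which enter the same trimer, were far apart in level and moved further apart. LAMB3 was 119 and 92.8 times LAMA3 in control and 612 and 570 times LAMA3 in the KD-labelled libraries. ITGA6 was 12.7 and 8.86 times ITGB4 in control and 31.8 and 64.4 times ITGB4 in the KD-labelled libraries, where the counts of ITGB4 were 36 and 27.

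In the other 4 pairs the ratios of the groups overlapped. The log2 ratio of LAMA5 to LAMB1 was -0.88 and -0.68 in control and -0.79 and -0.86 in the KD-labelled libraries, and that of ITGA6 to ITGB1 was -3.94 and -4.22 against -4.31 and -3.59. The other overlapping pairs were ITGAV with ITGB5 and ITGAV with ITGB8. Between receptor and ligand, the log2 ratio of ITGA3 to LAMA3 was 6.60 and 6.54 in control and 6.88 and 6.91 in the KD-labelled libraries, and that of ITGA3 to LAMA5 was 3.95 and 3.90 against 3.81 and 3.62. These groups did not overlap, and the log2 ratios changed on average by 0.33 with LAMA3 and by -0.21 with LAMA5. ITGA6 against LAMA3 changed by more, from 2.07 and 1.64 to 2.75 and 3.31. Ratios between genes depend on the length assigned to each. With the longest annotated transcript in place of all exons, ITGA5 stood at 0.570 and 0.559 of ITGB1 in control instead of 1.00 and 0.981. The assigned length cancels in the change of a ratio between groups. Longer genes had lower fold changes in these data, as described below, and the ratios were not corrected for that trend.

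**Figure D3:**
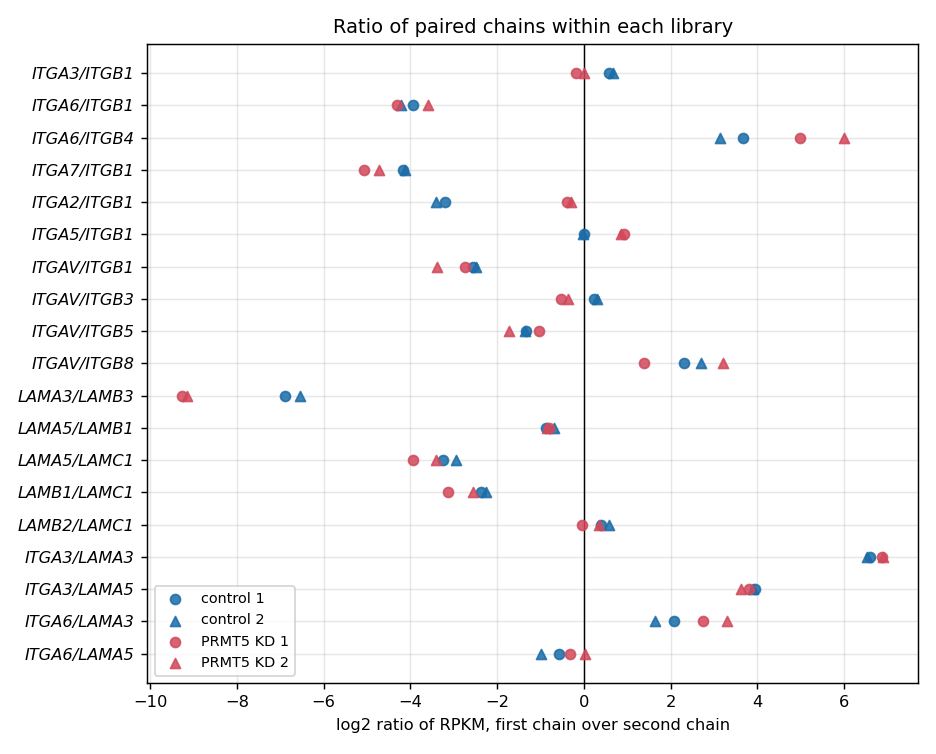
Log2 ratio of RPKM for 19 pairs of chains in each library, first chain over second, with control in blue and PRMT5 KD in red. ITGA2/ITGB1 moves right from near -3.3 to near -0.3 and LAMA3/LAMB3 moves left from near -6.7 to near -9.2, while the points of LAMA5/LAMB1 lie together.

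The collagen-binding alpha chains, all partners of ITGB1, split by direction. ITGA2, on chromosome 5 from 52989340 to 53094779, rose from 14.8 and 14.9 RPKM to 53.9 and 52.6 RPKM. The replicates nearly coincided in each group, and this 3.58-fold rise (1.84 in log2, standard error 0.12, FDR = 0.000250) was the largest of any chain tested. ITGA10, a receptor chain of cartilage, fell from 1.97 and 2.42 RPKM to 0.135 and 0.0971 RPKM (log2 fold change -4.24, standard error 0.25, FDR = 0.000235), an 18.9-fold difference in a chain that passed the filter through control alone. ITGA11, typical of fibroblasts, fell from 3.34 and 4.77 RPKM to 0.421 and 0.558 RPKM (log2 fold change -3.05, standard error 0.24, FDR = 0.000435). ITGA1 lies 30.1 kb upstream of ITGA2 on the same strand. It had 5.49 and 6.08 RPKM in control, 19.7 RPKM in PRMT5 KD replicate 1 and 4.997 RPKM in PRMT5 KD replicate 2. It was the only chain tested whose groups overlapped, and it was not called (log2 fold change 1.09, standard error 0.65, FDR = 0.221). Leaving out PRMT5 KD replicate 1 gave -0.18, and leaving out PRMT5 KD replicate 2 gave 1.77 with a call. PELO shares 499 exonic bases with ITGA1 on the same strand and had 2099 and 2577 counts in control against 5227 and 4152, and how the estimates divided shared reads is not known.

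The promoters of these 4 chains are shown because members of this group moved in opposite directions. Each window holds 250 bases before and 50 after the RefSeq start on GRCh38.p14, written 5′ to 3′ on the strand of the gene, at chr5:52787666-52787965 (ITGA1, plus strand), chr5:52989102-52989401 (ITGA2, plus strand), chr1:145910001-145910300 (ITGA10, minus strand) and chr15:68432114-68432413 (ITGA11, minus strand). Capitals mark the GC box GGGCGG on either strand.
ITGA1: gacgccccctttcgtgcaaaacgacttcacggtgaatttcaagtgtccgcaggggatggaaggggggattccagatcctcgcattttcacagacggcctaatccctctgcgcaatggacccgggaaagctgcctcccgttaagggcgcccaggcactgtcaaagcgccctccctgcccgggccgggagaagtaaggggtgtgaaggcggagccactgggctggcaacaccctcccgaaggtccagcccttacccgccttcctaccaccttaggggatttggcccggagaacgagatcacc
ITGA2: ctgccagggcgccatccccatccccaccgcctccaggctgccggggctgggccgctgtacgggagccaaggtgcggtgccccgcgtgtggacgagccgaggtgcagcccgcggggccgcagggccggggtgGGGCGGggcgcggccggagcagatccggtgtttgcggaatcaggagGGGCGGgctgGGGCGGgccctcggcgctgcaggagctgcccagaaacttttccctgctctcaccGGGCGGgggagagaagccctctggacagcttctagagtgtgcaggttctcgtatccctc
ITGA10: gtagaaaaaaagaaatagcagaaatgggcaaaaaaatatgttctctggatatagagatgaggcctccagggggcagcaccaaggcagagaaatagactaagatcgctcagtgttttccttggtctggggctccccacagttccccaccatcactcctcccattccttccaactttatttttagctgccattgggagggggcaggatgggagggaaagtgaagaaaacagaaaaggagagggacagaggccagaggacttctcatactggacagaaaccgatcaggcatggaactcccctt
ITGA11: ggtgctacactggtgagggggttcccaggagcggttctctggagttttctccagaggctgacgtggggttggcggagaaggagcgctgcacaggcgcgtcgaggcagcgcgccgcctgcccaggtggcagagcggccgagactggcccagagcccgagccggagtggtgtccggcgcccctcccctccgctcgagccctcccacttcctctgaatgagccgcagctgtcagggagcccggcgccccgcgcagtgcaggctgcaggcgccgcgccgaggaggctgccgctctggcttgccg

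The ITGA2 window holds 4 GC boxes and the other windows of this group hold 0. Of the 37 chains 26 had a promoter in the RefSeq table, and 14 of these (53.8%) hold a GC box, against 45.0% of all 35116 promoters. For each chain the first listed promoter was used, while all promoters include every entry of a gene. The LAMA3 window lies inside the gene, downstream of its annotated start. Among the chains with a window, 8 of 14 called lower hold a GC box. LAMA5 holds 5 of them and LAMB1 holds 4, and the others called lower hold fewer. ITGA2 was the only chain called higher with a window. The AP-1 motif TGANTCA was in 2 of 26 windows (7.69%), those of ITGA5 and LAMA3, against 7.71% of all promoters, and the TATA box TATAAA in 1 (3.85%), that of ITGA6, against 11.5%. All motifs were searched on both strands, and no match in this window says nothing of sites elsewhere.

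The chains that bind the arginine-glycine-aspartate motif of fibronectin and vitronectin differed in their response. ITGA5, the fibronectin receptor chain and the second most abundant alpha chain in control, had 138 and 156 RPKM in control and 133 and 118 RPKM in the KD-labelled libraries. The groups were separate by a narrow margin, and the log2 fold change of -0.23 (standard error 0.15, FDR = 0.238) did not pass. ITGAV fell from 23.5 and 28.4 RPKM to 10.5 and 6.21 RPKM (log2 fold change -1.64, standard error 0.27, FDR = 0.00479). Its partner ITGB5 fell with it, from 59.2 and 73.2 RPKM to 21.6 and 20.4 RPKM (log2 fold change -1.66, standard error 0.15, FDR = 0.000499), and the ratio of ITGAV to ITGB5 overlapped between the groups. Against ITGB1 the ratio of ITGAV was 0.171 and 0.178 in control and 0.149 and 0.0961 in the KD-labelled libraries. Against ITGB3 it was 1.18 and 1.24 in control and 0.692 and 0.781 in the KD-labelled libraries. ITGA5 stood at 1.00 and 0.981 of ITGB1 in control and at 1.89 and 1.82 in the KD-labelled libraries. The groups did not overlap in the ratios with ITGB1 and ITGB3. ITGB3 had 19.9 and 22.9 RPKM in control and 15.2 and 7.95 RPKM in the KD-labelled libraries, which did not pass in edgeR (log2 fold change -0.89, FDR = 0.0652) and did in DESeq2 (FDR = 0.00461). ITGB8, which with ITGAV activates latent TGF-beta, had 4.74 and 4.37 RPKM in control, 4.03 RPKM in PRMT5 KD replicate 1 and 0.667 RPKM in replicate 2. The PRMT5 KD libraries disagreed by far more than the control libraries did, and its log2 fold change was -0.96 (standard error 0.82, FDR = 0.373), -2.74 without PRMT5 KD replicate 1 and -0.17 without PRMT5 KD replicate 2. ITGB6, the epithelial partner of ITGAV, had 5 counts in each control library and 1 and 0 in the KD-labelled libraries.

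ITGA4, which binds VCAM1 and fibronectin, fell from 10.1 and 10.4 RPKM to 1.40 and 1.99 RPKM (log2 fold change -2.60, standard error 0.19, FDR = 0.000337). Its relative ITGA9 had between 16 and 21 counts in every library and was not tested. Exons of ITGA4 overlap those of CERKL on the other strand over 26.4% of their length, and CERKL had at most 24 counts.

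Chains known from leukocytes were scarce apart from ITGAX. ITGAX had 6.28 and 8.68 RPKM in control and 4.04 and 3.07 RPKM in the KD-labelled libraries (log2 fold change -1.07, standard error 0.21, FDR = 0.00715), and the call was lost without control replicate 2 (-0.82, FDR = 0.0570). Its only beta partner, ITGB2, stayed under the filter, with 0.311 and 0.178 RPKM in control and 0.414 and 0.335 RPKM in the KD-labelled libraries. ITGAE, which pairs with ITGB7 to bind CDH1, had 0.711 and 0.759 RPKM against 0.525 and 0.437 RPKM and was not called (log2 fold change -0.61, FDR = 0.0539). ITGB7 had at most 8 counts and CDH1 at most 9. ITGAD had 24 and 38 counts in control and 0 in both PRMT5 KD libraries, at least 10.9-fold lower against a floor of 3 counts per library. This floor covers counting error only. ITGAL had 16 and 51 counts against 3 and 2. ITGAM had at most 4 counts in any library, the platelet chain ITGA2B at most 22 and ITGA8 at most 3.

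The makeup of each pool of chains differed between the groups; this description was chosen after the levels had been seen. ITGA3 made up 48.4% and 50.4% of the summed RPKM of the 18 alpha chains in control and 21.4% and 24.9% in the KD-labelled libraries. ITGA5 took the first place there, with 45.6% and 45.2% against 32.1% and 30.9% in control, and ITGA2 went from 3.47% and 2.95% to 18.5% and 20.2%. The rise in the share of ITGA5 came without a call on ITGA5 itself. Summed over the laminin-binding chains ITGA3, ITGA6 and ITGA7, the level went from 224 and 273 RPKM to 68.0 and 72.8 RPKM, and ITGA3 stayed at 89.3% to 93.5% of that sum in every library. Among laminin alpha chains, LAMA4 went from 74.9% and 74.8% to 50.6% and 58.4% and LAMA1 from 4.87% and 3.47% to 27.4% and 21.4%, while LAMA5 lay between 16.8% and 19.2% throughout. Among laminin beta chains, LAMB3 went from 57.0% and 53.2% to 81.5% and 79.3%.

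**Figure D4:**
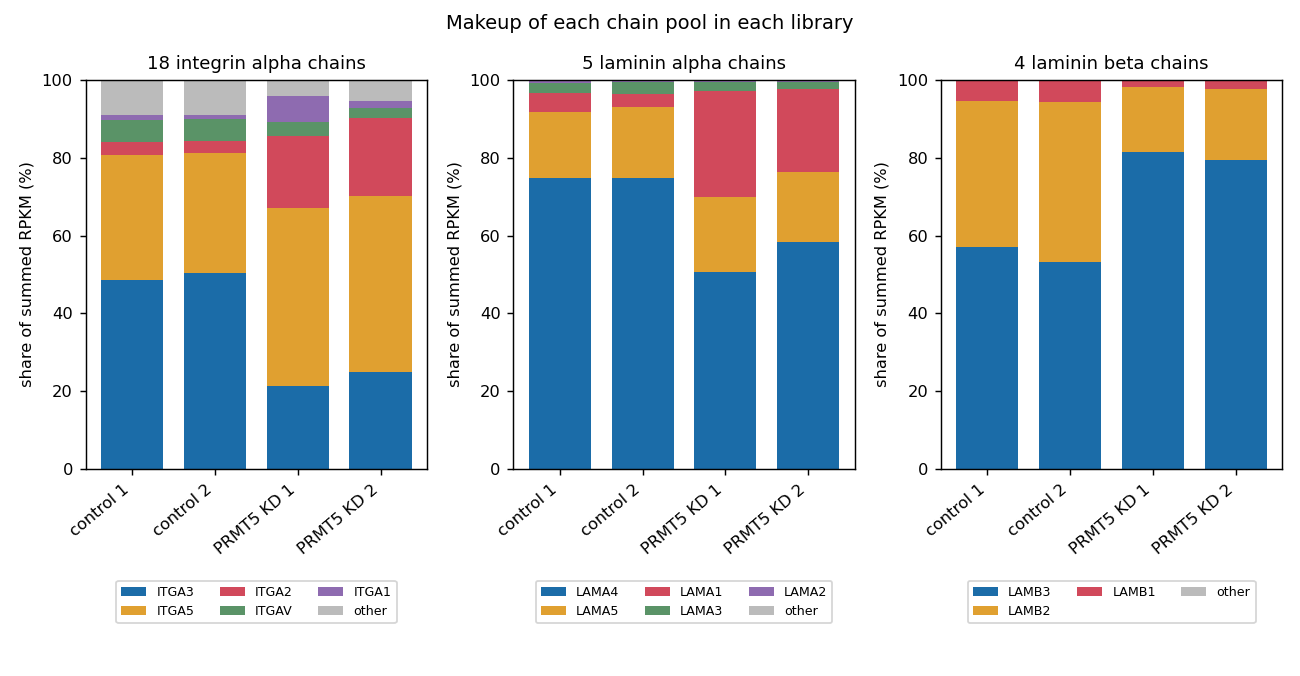
Share of the summed RPKM held by each chain in each library, for all 18 integrin alpha chains, 5 laminin alpha chains and 4 laminin beta chains; bars add up to 100%. ITGA3 is the largest alpha share in control and ITGA5 in the KD-labelled libraries, LAMA1 widens among the laminin alpha chains and LAMB3 among the beta chains.

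Other genes of cell-matrix adhesion were counted by 4 lists. Of 26 cytoplasmic adhesion proteins 24 were tested, and 9 were called lower and 3 higher around a median of -0.29, and 12 of 24 called is close to the 45.5% over all genes. Corrected for length and GC the list had 5 in each direction. The tensin TENC1 (now TNS2) at -1.63, TNS3 at -1.48 and TGFB1I1, a paxillin relative, at -0.98 fell most, and the kindlins FERMT1 (1.19) and FERMT3 (0.96) and the kinase SRC (0.52) rose. FERMT1 and FERMT3 passed the filter through the KD-labelled libraries alone, where they are high. All 3 lost their call without control replicate 1 (FDR = 0.0612, 0.0767 and 0.0546), and FERMT1 and SRC also without control replicate 2 (FDR = 0.103 and 0.0664). Of 8 hemidesmosome proteins and further laminin receptors 7 were tested, 6 were called lower and SDC4, a syndecan, was called higher at 1.29. The share called lower was 85.7% of a short list, against 24.3% over all genes. Corrected for length and GC, 4 were called lower, with the plakin PLEC going from -1.11 to -0.39 (FDR = 0.0680) and the tetraspanin CD151 from -0.59 to -0.44. COL17A1, a hemidesmosome collagen, was left untested by the filter, with 36 counts in each control library and 138 and 358 in the KD-labelled libraries, and was called higher without a filter. The largest falls in log2 were those of BCAM, which binds LAMA5 (-2.24), the syndecan SDC1 (-1.55) and the plakin DST (-1.25).

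Of 15 other basement membrane components 12 were tested, with 6 called lower and 1 higher and a median of -0.54, or 58.3% called against 45.5% over all genes. FRAS1 at -2.82, COL4A4 at -1.55 and FREM2 at -1.47 fell most, all through a filter passed in control alone, and COL4A2, a chain of the common type IV collagen, rose by 0.99. Of 18 other integrin ligands 15 were tested, 11 were called lower (73.3%, against 24.3% over all genes) and 4 were not called. COL3A1 (-5.25), COL1A2 (-3.71) and VCAM1, the ligand of ITGA4 (-2.86), fell most on the log2 scale, COL3A1 and VCAM1 having passed the filter in control alone. COL1A2, COL3A1 and COL1A1 are also on the list of fibroblast markers. The fibronectin gene FN1, a member of this list singled out after its value was seen because it is the ligand of ITGA5, fell from 3555 and 5089 CPM to 1891 and 1693 CPM (log2 fold change -1.27, FDR = 0.00351).

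**Figure D5:**
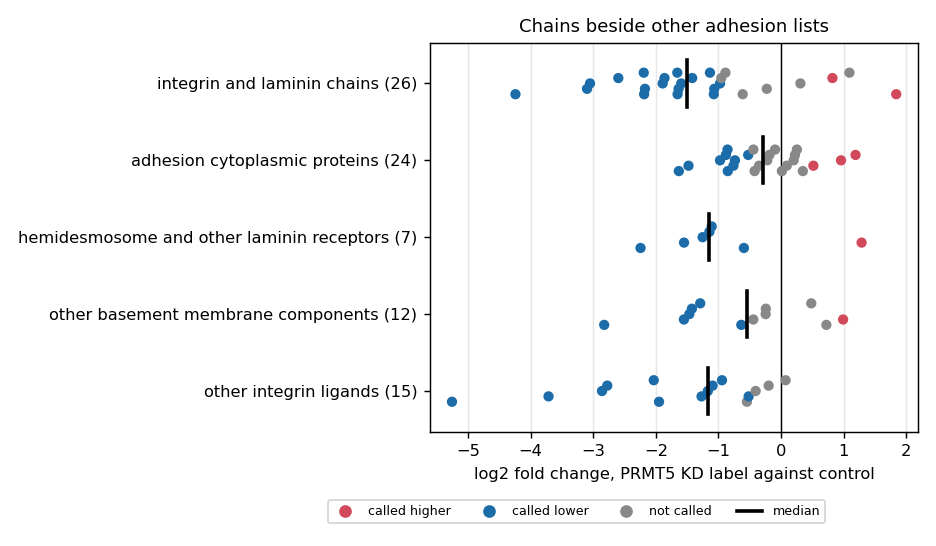
Log2 fold change of every gene tested in the integrin and laminin chains and in 4 other adhesion lists, with the number tested in brackets. Points are genes coloured by call and black bars are medians. The median of the chains, -1.51, is the lowest of the 5, and that of the cytoplasmic proteins, -0.29, the nearest to 0.

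Laminin and integrin transcripts are long, and longer genes had lower fold changes overall. The median exon length of the 26 chains was 9441 bases against 5383 over all genes tested, and over 10 equal bins of exon length the median of all genes ran from 0.24 (shortest) to -0.29 (longest). Corrected for length and GC, the chains had a median of -1.05, against 0.06 over all genes, and all 20 called chains kept their call and direction. LAMA5 moved most among those called, from -1.65 to -0.99, and LAMB3 then had an FDR of 0.0390 at 0.42, under the fold change threshold.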

How the data were processed

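RNA-seq libraries of UMSCC74B cells (2 control, 2 labelled PRMT5 KD, 72 h) were analysed from the tables the authors deposited, which hold estimated counts per gene without normalization, 1 table per library. Per the labels FastQC, Trim Galore, STAR, Salmon and DESeq2 were used on GRCh38, without roles. The methods name STAR, uniquely mapped reads and FeatureCounts on protein-coding genes, whereas the tables list further gene classes and hold values with decimals (79.4% to 80.4% of the values above 0 are whole, with no tolerance). The program that made them is not given in the sources used here. The labels describe plasmid transfection and the methods lentiviral particles.

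Entries whose names a spreadsheet had turned into dates (28, at most 0.161% of counts) were left out, and entries of one name were summed. Names were matched to GENCODE 44 by symbol (21877), RefSeq number (1118) or unique synonym (1544). Counts were rounded. Protein-coding genes reaching 0.5 RPKM throughout at least 1 group were fitted together by the quasi-likelihood test of edgeR 4.0.16 (robust, TMM) in R 4.3.3, with Benjamini-Hochberg adjustment (FDR). Calls needed an FDR below 0.05 and a log2 change of 0.5 or more either way. Standard errors were the log2 change over the root of F. RPKM used all annotated exons of a gene, with TMM-adjusted totals for the levels given and unadjusted totals for the filter.

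With 2 libraries against 2, no permutation of labels can reach a p of 0.05, and per-gene FDR values rest on the fit across all genes. Members and lists were chosen with earlier results of these data known. From each list the 3 strongest calls each way whose groups did not overlap were named. Alternatives were DESeq2 1.42.0, RLE factors, total counts, other filters, all gene names, non-robust dispersion, a replicate term, a length and GC correction (splines with 4 degrees of freedom), a fold change threshold of 1 and each library left out. Same-numbered libraries had deviations with a correlation of -0.101 across genes and were not treated as pairs. Promoter windows came from RefSeq (GRCh38.p14). The summed level of the leukocyte markers is not reported here.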

Additional observations from a re-analysis of the deposited data

How the results depend on the processing

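The number of chains called (20) lay between 18 and 23 under every alternative run. Without control replicate 1, ITGA6 lost its call, and without control replicate 2, ITGA6 and ITGAX did. Without PRMT5 KD replicate 1, ITGA1 turned to -0.18 (FDR = 0.291; 1.77 with a call without PRMT5 KD replicate 2), and ITGB3 (-1.395), ITGB8 (-2.74) and ITGAE (-0.72) gained calls. ITGB3 also gained 1 under DESeq2, with non-robust dispersion (FDR = 0.0470) and with the crossed numbers described here (FDR = 0.0118). Among the other tests, scalings, filters and corrections, 282 values for single chains kept direction and side of the threshold and the other 3 are those of ITGB3. Tests over all gene names left 25 chains, without LAMA2, and 19 calls. Without a filter on low counts, and with edgeR's filterByExpr, 22 chains were called. ITGAD and ITGAL were the additions without a filter.

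Total counts alone moved the median of all genes to 0.17 and made 61.5% of calls higher, against 46.6%, and the chains stayed at 18 lower and 2 higher. The replicate block, whose numbers the labels do not tie to a shared culture, gave 5184 called genes against 5417 and the same 20 chains, also when corrected for length and GC. Since same-numbered libraries had deviations with a correlation of -0.101, the crossed numbers were fitted too, a choice made after the data were seen, and gave 5484 genes and 21 chains. Raising the fold change threshold to 1 left 2560 genes (1032 higher, 1528 lower), 18 chains and 3 cytoplasmic adhesion proteins, by its own construction. With each library left out, the genes called ran from 3093 (without control replicate 2) to 5728, and the cytoplasmic adhesion proteins from 7 (without control replicate 1) to 14. The cause was not tested. The pairs with separate ratios numbered 15 to 18. By construction this count can only stay or rise when a library is left out. Another assigned length cannot change it, so the range is no check on the pairs. The length assigned to a gene sets levels between genes. With the longest transcript, a choice made after the data were seen, ITGA3 took 51.9% and 53.6% of the alpha chains in control, against 25.3% and 29.99% in the KD-labelled libraries.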
